A study of Mus musculus with 9 samples.

Results

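Transcripts of 10 transcription factor genes of the luminal lineage of the mammary gland (Elf3, Elf5, Ehf, Gata3, Foxa1, Irx2, Irx3, Klf5, Esr1 and Pgr) were followed across cultures of mouse mammary tumor cells and normal mammary cells. Every probe set whose array annotation gives 1 of them as its single symbol was kept, which gave 14 of 22626 probe sets and 10 of 12393 genes. The 10 genes were chosen on their group levels in these same arrays, which were known beforehand, and their values, intervals and calls describe these arrays and are not independent evidence of a difference.

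Tumorspheres (TMS) were grown as non-adherent spheres in stem cell medium from mammary tumors of MMTV-Neu mice, in which a mouse mammary tumor virus promoter drives the Neu receptor in mammary epithelium, and the 3 cultures came from different tumors. Mammospheres (MMS) were grown in the same medium from mammary glands of virgin FVB/N females aged 6 to 8 weeks, and for mammospheres induced to differentiate (diffMMS) the dispersed cells were plated on collagen and kept for 7 days in medium with serum. Spheres were passaged weekly and harvested at passage 3 to 5. Each group had 3 preparations on MOE430A arrays, 1 array each. Of these cultures only TMS derive from cells with the transgene, so that tumor origin and transgene cannot be told apart. The TMS arrays carry codes in another range of numbers (1099A to 1101A) than the MMS and diffMMS arrays (858A to 863A). The labels give no date or batch, and anything these codes stand for cannot be told apart from TMS. The samples are bulk RNA, in which fewer cells of a type and less RNA per cell cannot be told apart.

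Luminal cells line the ducts and alveoli of the mammary gland and lie inside a layer of basal myoepithelial cells. GATA3 is needed to form and keep them, ELF5 directs the alveolar, milk-secreting branch, and FOXA1, the estrogen receptor (Esr1) and the progesterone receptor (Pgr) mark the hormone-sensing branch. Elf3, Elf5 and Ehf encode epithelial members of the ETS family, which bind a core with the letters GGAA, and Irx2 and Irx3 encode Iroquois homeodomain proteins.

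Of 5 defining markers of luminal cells, Krt8, Krt18, Epcam and Cdh1 were higher in TMS than in both normal cultures, and Krt19 was not. Krt18, which encodes a luminal keratin, gave log2 intensities of 9.79, 10.15 and 10.67 in TMS, against 5.29, 5.54 and 5.66 in diffMMS and 5.58, 5.94 and 6.27 in MMS. Krt19, another luminal keratin gene, had 5.99, 5.86 and 5.69 in TMS, against 6.33, 5.89 and 6.28 in diffMMS and 5.83, 5.78 and 5.74 in MMS, with TMS overlapping both. The summed deposited intensity of the 5 markers was 2918 to 5033 in TMS, against 285.9 to 338.8 in diffMMS and 277.3 to 372.1 in MMS. Of 5 fibroblast markers (Col1a1, Col1a2, Col3a1, Pdgfra and Dcn), the sum was 21200 to 24030 in TMS, against 34000 to 35330 in diffMMS and 24810 to 25990 in MMS. Fibroblast marker signal was thus high in all 3 cultures. Of 5 basal markers (Krt5, Krt14, Trp63, Acta2 and Myh11), the sum was 623 to 764.3 in TMS, against 2256 to 3249 in diffMMS and 639.8 to 716.6 in MMS. Most of the diffMMS sum was Acta2, with 1956 to 2974 in diffMMS, against 314.7 to 445.7 in TMS and 414.3 to 487.1 in MMS. Trp63 and Myh11 were 0.32 and 0.19 higher in diffMMS than in MMS on the log2 scale, and Krt5 and Krt14 were not called. The part of cell makeup in the differences below was not tested. Erbb2, the mouse gene of the Neu receptor, was higher in TMS than in MMS by 0.34 on the log2 scale (SE 0.0784, adjusted p = 0.0128 from limma) and differed from diffMMS by 0.17 (adjusted p = 0.143). Whether its probe set also reads transcripts of the Neu transgene is not given in the sources used here, so these values are no measure of the transgene.

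Promoter sequences are shown for Elf5, Gata3, Irx2 and Irx3, whose transcripts stood well above both normal cultures in TMS, since they adjoin the starts from which these genes are transcribed. RefSeq promoters of GRCm38.p6 were matched for 8 of the 10 genes, all but Ehf and Klf5, with 2 starts each for Elf5 and Esr1 and therefore 10 promoters. Each sequence below holds the 250 bases before the transcription start, read along the gene's strand. Capitals mark, on either strand, an ETS core with its flank (GGAAG after A or C) or a GATA core with its flank (GATA after A or T and before A or G).
Elf5, first start (chr2:103411848-103412097, plus strand): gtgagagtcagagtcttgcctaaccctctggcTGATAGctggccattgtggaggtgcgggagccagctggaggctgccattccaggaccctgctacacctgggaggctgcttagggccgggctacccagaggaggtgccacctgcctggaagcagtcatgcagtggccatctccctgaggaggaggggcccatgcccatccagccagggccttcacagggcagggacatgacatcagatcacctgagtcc
Elf5, second start (chr2:103423818-103424067, plus strand): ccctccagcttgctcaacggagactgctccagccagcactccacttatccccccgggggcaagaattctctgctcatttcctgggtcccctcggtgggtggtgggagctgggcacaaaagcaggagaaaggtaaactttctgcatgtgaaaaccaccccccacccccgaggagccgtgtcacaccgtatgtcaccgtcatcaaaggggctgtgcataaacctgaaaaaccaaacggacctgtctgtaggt
Gata3 (chr2:9878601-9878850, minus strand): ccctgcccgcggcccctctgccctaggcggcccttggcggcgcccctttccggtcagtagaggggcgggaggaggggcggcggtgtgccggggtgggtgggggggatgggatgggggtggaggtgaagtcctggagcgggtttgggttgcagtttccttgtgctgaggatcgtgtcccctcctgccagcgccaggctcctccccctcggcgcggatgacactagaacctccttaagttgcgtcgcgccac
Irx2 (chr13:72628570-72628819, plus strand): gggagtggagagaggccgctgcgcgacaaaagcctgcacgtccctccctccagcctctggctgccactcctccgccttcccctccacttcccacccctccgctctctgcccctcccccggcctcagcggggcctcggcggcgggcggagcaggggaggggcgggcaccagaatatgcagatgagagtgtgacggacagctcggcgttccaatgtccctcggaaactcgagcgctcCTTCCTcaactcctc
Irx3 (chr8:91801655-91801904, minus strand): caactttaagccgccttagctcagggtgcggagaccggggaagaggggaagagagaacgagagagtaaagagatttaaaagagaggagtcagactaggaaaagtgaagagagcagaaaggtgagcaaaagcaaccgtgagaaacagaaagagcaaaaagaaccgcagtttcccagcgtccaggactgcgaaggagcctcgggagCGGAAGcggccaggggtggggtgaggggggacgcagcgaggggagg
The Irx2 promoter holds AGGAAG on the reverse strand, 15 bases before the start, and the Irx3 promoter holds CGGAAG on the forward strand, 46 bases before it. The first Elf5 promoter holds TGATAG, 218 bases before the start, and the Gata3 promoter holds neither core in this window. Among the 10 promoters, 4 hold an ETS core with its flank (Irx2, Irx3, the first of Esr1, and Pgr), against 39.2% of 32851 promoters of the same length. A GATA core is in 2 of 10, against 26.5% of all, and the CACCC box that Krüppel-like factors bind is in 8 of 10, against 52% of all. The full palindromic estrogen response element (GGTCA, then any 3 bases, then TGACC) is in 0 of 10, against 0.0639% of all. With 10 promoters these shares are a description only.

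Elf5, the ETS factor of alveolar differentiation, differed most between TMS and the normal cultures. With probe set 1419555_at its log2 intensities were 7.74, 7.57 and 8.12 in TMS, against 4.79, 4.92 and 4.93 in diffMMS and 4.91, 4.98 and 4.92 in MMS. Every TMS array lay far above every array of the other cultures, which overlapped each other. The difference was 2.87 against MMS (SE 0.114, a 7.32-fold higher intensity) and 2.93 against diffMMS (7.63-fold). Its other probe set, 1419556_at, had 5.87, 5.77 and 5.84 in TMS, against 5.05, 4.90 and 4.95 in diffMMS and 4.99, 5.01 and 5.08 in MMS. Here the differences were 0.80 and 0.86, in the same direction and smaller. The deposited intensities of both probe sets in MMS and diffMMS (20.08 to 25.89) were below the lower quartile of all probe sets on any array (37.06 to 41.53), where a constant added before taking logarithms compresses a fold. Without the added constant the Elf5 differences of 1419555_at were 3.30 and 3.38, and with 4 times the constant they were 2.15 and 2.18.

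Ehf, an ETS factor of secretory and lining epithelia, is measured by 3 probe sets. With 1451375_at its log2 intensities were 5.56, 5.38 and 6.63 in TMS, against 4.48, 4.44 and 4.56 in diffMMS and 4.46, 4.43 and 4.52 in MMS. TMS did not overlap the other cultures, and culture 1101A was well above the other TMS cultures. The difference was 1.38 against MMS (SE 0.233) and 1.36 against diffMMS, and without 1101A it was 0.997 and 0.975. With 4 times the added constant these differences were 0.82 and 0.81. The probe sets 1419474_a_at and 1419475_a_at differed from MMS by 0.75 and 0.42, again with 1101A the highest TMS array and no overlap, at deposited intensities of 8.416 to 14.13 in the normal cultures.

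Elf3, an ETS factor found in most epithelia, did not follow Elf5 and Ehf. Its log2 intensities were 7.75, 7.72 and 7.48 in TMS, against 7.80, 7.62 and 7.71 in diffMMS and 7.43, 7.45 and 7.22 in MMS. TMS and diffMMS overlapped, and both lay above MMS. The TMS difference was 0.28 against MMS (95% interval 0.074 to 0.496) and -0.06 against diffMMS (-0.268 to 0.154). Elf3 was thus at its lowest in undifferentiated normal spheres, by 0.34 below diffMMS.

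Ehf and Elf5 are adjacent protein-coding genes on chromosome 2 in the order of GRCm38.p6, and the surrounding genes were read for comparison, a choice made after the values were seen. Apip, on the Ehf side, differed between TMS and MMS by 0.02 (adjusted p = 0.931 from limma). Cat, which encodes catalase, lies on the Elf5 side and differed by -0.35 (adjusted p = 0.158). Against diffMMS the differences of Apip and Cat were 0.21 and 0.36, neither past the threshold. Cd44, the third measured neighbour, differed from MMS by 0.30 (adjusted p = 0.272) and was 0.97 higher than in diffMMS (adjusted p = 0.00118).

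Gata3, the zinc finger factor that maintains luminal identity, had 6.75, 6.66 and 6.81 in TMS, against 5.22, 5.20 and 5.05 in diffMMS and 5.11, 5.03 and 5.11 in MMS. The TMS arrays lay close together and well above the rest, while diffMMS and MMS overlapped. The difference was 1.66 against MMS (SE 0.0689, 3.15-fold) and 1.58 against diffMMS (3.00-fold). Its deposited intensities in MMS and diffMMS (23.01 to 30.45) also lay below the lower quartile of all probe sets, so that the added constant compresses these folds too, and over the settings tried the difference ranged from 1.15 to 1.96 against MMS and from 1.11 to 1.87 against diffMMS. Of its 4 measured neighbours on chromosome 2, Echdc3 was higher in TMS than in MMS by 0.35 (adjusted p = 0.0344 from limma), and Celf2 (0.02), Kin (-0.07) and Atp5c1 (0.07) were not past the threshold. Against diffMMS, Atp5c1, which encodes a subunit of ATP synthase, was higher by 0.50 (adjusted p = 0.00195), and Echdc3 (0.11), Celf2 (0.05) and Kin (0.08) were not past the threshold.

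Foxa1, a forkhead pioneer factor that opens chromatin for the estrogen receptor, had 4.71, 4.57 and 4.85 in TMS, against 4.61, 4.65 and 4.49 in diffMMS and 4.68, 4.70 and 4.65 in MMS. All 3 cultures overlapped, at deposited intensities of 14.06 to 19.42, far down among the dim probe sets. The TMS difference was 0.04 against MMS (95% interval -0.107 to 0.181) and 0.13 against diffMMS (-0.013 to 0.275). 

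**Figure D1:**
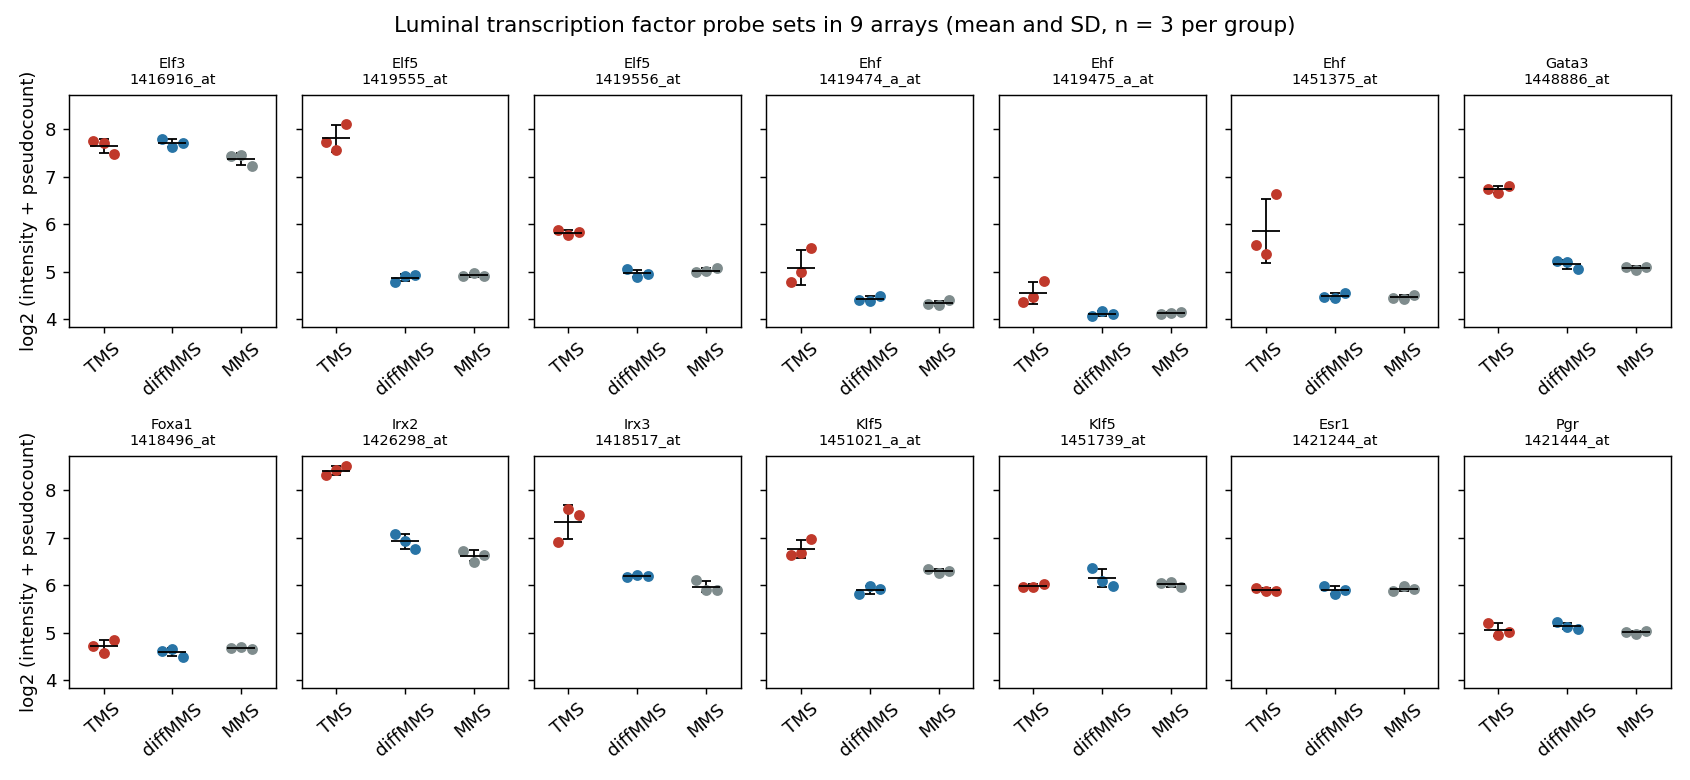
Log2 intensity of the 14 probe sets in each of 9 arrays, 1 panel per probe set, with groups in the order TMS, diffMMS and MMS, points for arrays, and the mean and SD of 3 arrays per group. Elf5, Ehf, Gata3, Irx2 and Irx3 have all TMS points above the others, whereas Foxa1, Esr1 and Pgr overlap between TMS and both normal cultures.

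Irx2 and Irx3 stood higher in TMS as well, with deposited intensities in the normal cultures of 78.46 to 126.2 for Irx2 and 48.44 to 66.62 for Irx3, above those of Elf5. Irx2 had 8.31, 8.41 and 8.50 in TMS, against 7.08, 6.93 and 6.76 in diffMMS and 6.72, 6.49 and 6.64 in MMS. The order of levels was TMS, diffMMS and MMS with no overlap, narrowly so between diffMMS and MMS. The difference was 1.79 against MMS and 1.48 against diffMMS, each with an SE of 0.0973. Irx3 had 6.91, 7.59 and 7.47 in TMS, against 6.17, 6.22 and 6.20 in diffMMS and 6.10, 5.89 and 5.90 in MMS. Its order was the same, with differences of 1.36 and 1.12 (SE 0.142). Culture 1099A was the lowest TMS array for Irx3 and the other cultures lay close together.

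Mammalian Iroquois genes lie in a pair of clusters of 3, and on these arrays 1 gene of each cluster differed little between cultures. In the cluster on chromosome 13, Irx1 had 9.24, 9.35 and 9.15 in TMS, against 8.19, 7.93 and 7.99 in diffMMS and 7.30, 7.14 and 7.20 in MMS. Irx1 was higher in TMS than in MMS by 2.04 (adjusted p = 7.1e-08 from limma) and than in diffMMS by 1.21 (adjusted p = 1.2e-06). Irx4 of the same cluster had 5.53 to 5.78 in TMS, 5.60 to 5.77 in diffMMS and 5.57 to 5.67 in MMS, and its TMS difference from MMS was 0.00 (95% interval -0.17 to 0.172). Beside this cluster, Ice1 differed from MMS by -0.28 (adjusted p = 0.067 from limma) and from diffMMS by 0.02 (adjusted p = 0.907). Mrpl36 differed from MMS by -0.06 (adjusted p = 0.741) and was 0.32 higher than in diffMMS (adjusted p = 0.0341).

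In the cluster on chromosome 8, Irx5 had 6.58, 6.59 and 6.89 in TMS, against 6.21, 5.96 and 6.10 in diffMMS and 5.87, 5.64 and 5.63 in MMS. It was higher in TMS by 0.98 against MMS (adjusted p = 0.00012 from limma) and by 0.60 against diffMMS (adjusted p = 0.00146). Irx6 of that cluster differed from MMS by 0.01 (95% interval -0.138 to 0.152). Fto, the protein-coding gene before Irx3, differed from MMS by -0.21 (adjusted p = 0.132) and was 0.32 lower than in diffMMS (adjusted p = 0.0163). Mmp2, which encodes a matrix metalloproteinase and lies beyond Irx6, was 0.60 lower in TMS than in MMS (adjusted p = 0.0133) and differed from diffMMS by -0.10 (adjusted p = 0.638). Of the 6 Iroquois genes, 4 were thus highest in TMS, with diffMMS between TMS and MMS in each, and the last gene of each cluster, Irx4 and Irx6, overlapped in all 3 cultures. Deposited intensities were 36.19 to 47.86 for Irx4 and 58.57 to 69.94 for Irx6, where a change of a low transcript may not be detectable.

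**Figure D2:**
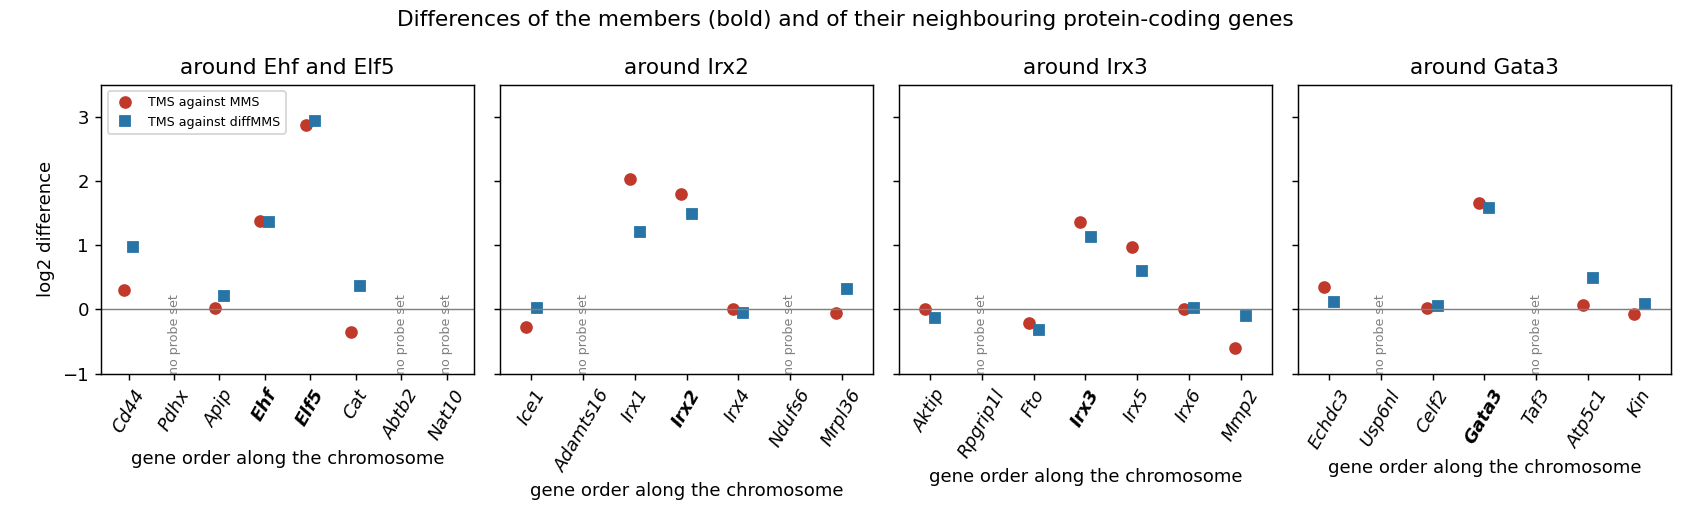
Log2 difference of TMS against MMS (circles) and against diffMMS (squares) for Ehf and Elf5, Irx2, Irx3 and Gata3 and for the protein-coding genes beside them, in chromosome order, with genes that have no probe set of their own name marked as such. Ehf and Elf5, Irx1 and Irx2, and Irx3 and Irx5 are pairs of neighbours that were both higher, while Irx4, Irx6 and Celf2 lie near 0.

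Klf5, a Krüppel-like factor of proliferating epithelium, gave different answers with its 2 probe sets. With 1451021_a_at it had 6.63, 6.68 and 6.97 in TMS, against 5.81, 5.98 and 5.92 in diffMMS and 6.33, 6.26 and 6.30 in MMS. All 3 groups were apart, with diffMMS lowest, and the TMS difference was 0.47 against MMS and 0.86 against diffMMS (SE 0.0931). With 1451739_at it had 5.95 to 6.02 in TMS, 5.99 to 6.35 in diffMMS and 5.96 to 6.06 in MMS, and the TMS difference was -0.05 (95% interval -0.24 to 0.147) and -0.17 (-0.361 to 0.026). Which transcripts of Klf5 each probe set reads is not given in the sources used here.

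The steroid hormone receptors showed no such difference. Esr1, the estrogen receptor gene, had 5.94, 5.88 and 5.87 in TMS, against 5.97, 5.82 and 5.90 in diffMMS and 5.88, 5.97 and 5.91 in MMS. All groups overlapped, and the TMS difference was -0.02 against MMS (95% interval -0.165 to 0.121) and 0.00 against diffMMS (-0.138 to 0.148). Pgr, the progesterone receptor gene and itself an estrogen receptor target, had 5.21, 4.95 and 5.01 in TMS, against 5.22, 5.12 and 5.08 in diffMMS and 5.02, 4.97 and 5.03 in MMS. TMS overlapped both others, with differences of 0.05 from MMS (-0.096 to 0.199) and -0.08 from diffMMS (-0.229 to 0.067), and diffMMS lay narrowly above MMS by 0.13 (-0.015 to 0.28). Deposited intensities were 48.32 to 56.73 for Esr1 and 21.86 to 30.52 for Pgr. At such dim signal a change of a low transcript may not be detectable.

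Over the 14 probe sets, 9 were called higher in TMS than in MMS at an adjusted p of 0.05 and the other 5 were not called, where 6.50% of all probe sets were called higher and 7.78% lower. Against diffMMS 9 were also called higher and 5 not called, where 12.2% of all were called higher and 11.4% lower. The groups did not overlap for 10 probe sets against MMS and 9 against diffMMS, where the shares over all probe sets were 33.3% and 37.4%. The median difference was 0.61 against MMS and 0.76 against diffMMS, with -0.001 and -0.018 over all probe sets. Both comparisons use the same TMS arrays, and since the genes were chosen with these levels known, nothing follows from the counts. The 5 probe sets not called against MMS were those of Elf3, Foxa1, Esr1 and Pgr and the second of Klf5, and the same 5 were not called against diffMMS. Without array 1101A, and with array weights, Elf3 was called higher in TMS than in MMS, and without 1100A Foxa1 was called higher in TMS than in diffMMS, by 0.20.

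**Figure D3:**
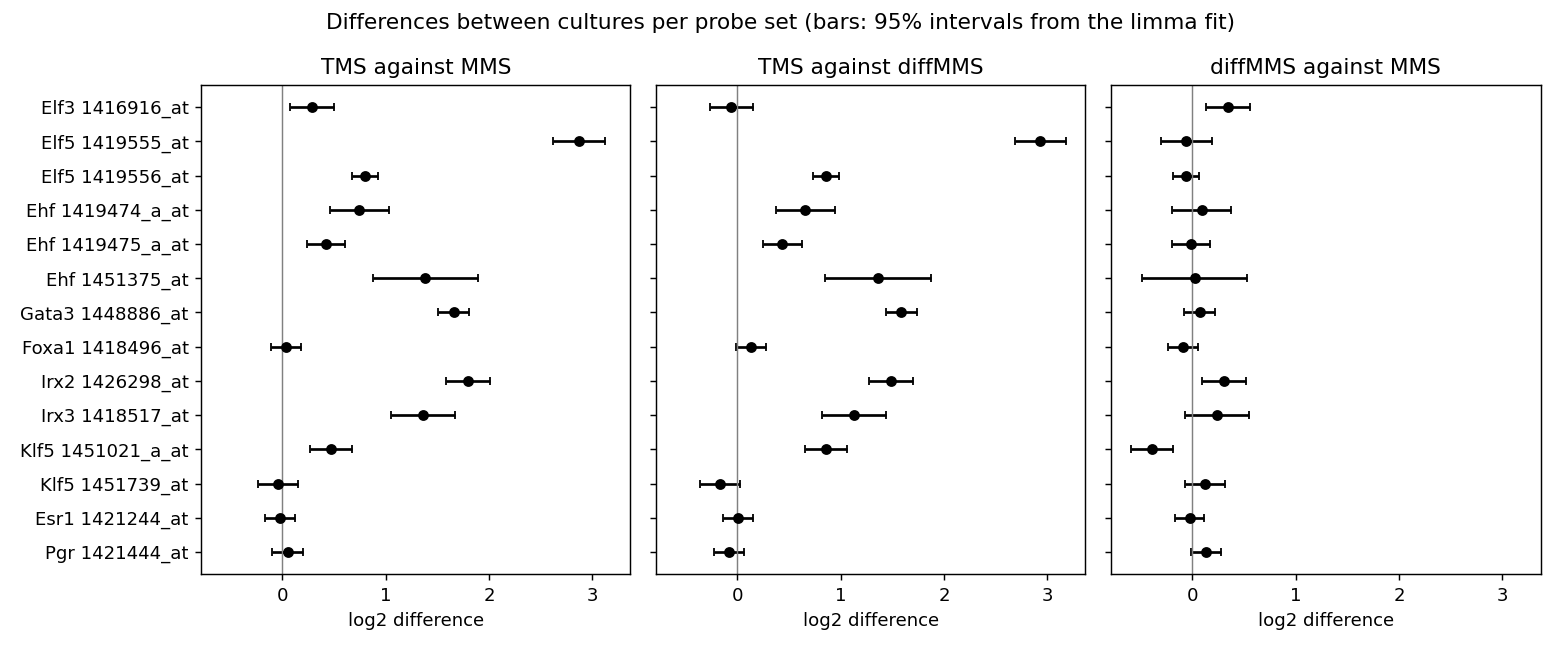
Log2 difference of each of the 14 probe sets for TMS against MMS, TMS against diffMMS and diffMMS against MMS, with 95% intervals from the limma fit. Elf5 1419555_at has the largest difference in both TMS comparisons (2.87 and 2.93), and most differences between diffMMS and MMS lie near 0.

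Between diffMMS and MMS, 2 of the 14 probe sets were called higher (Elf3 and Irx2) and 1 lower (a Klf5 probe set, 1451021_a_at), where 16.1% of all probe sets were called higher and 17.0% lower, so that the share called higher was near that of all probe sets. The groups did not overlap for 5 of 14, where the share over all probe sets was 51.6%, and the median difference was 0.05, with 0.029 over all. Elf3 was 0.34 and Irx2 0.31 higher in diffMMS than in MMS. Neither call was kept when arrays were centred on the median, with differences of 0.243 for Elf3 and 0.288 for Irx2. The Elf3 call was also lost without MMS array 860A (0.265) or diffMMS array 861A (0.30), and the Irx2 call without 859A (0.242), 860A (0.319), 861A (0.231) or 862A (0.307). Irx3, 0.24 higher in diffMMS and not called, was called with only these groups in the fit (adjusted p = 0.0339 from limma) and without TMS array 1099A (adjusted p = 0.0404). The main fit takes 1 spread per probe set from all 3 groups, so TMS spread enters the diffMMS and MMS intervals too. For Irx3 the SD was 0.36 in TMS, 0.12 in MMS and 0.025 in diffMMS. Klf5 1451021_a_at was 0.39 lower in diffMMS, with a 95% interval of the difference from -0.596 to -0.19. Elf5, Ehf and Gata3 differed between these cultures by -0.06 to 0.09, with the groups overlapping for each of their 6 probe sets.

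Among the 3 TMS cultures, 1101A was the highest for Elf5 1419555_at, all 3 probe sets of Ehf, Gata3 and Irx2. It was also the highest for Krt18 (10.67, with 9.79 and 10.15 in the others), Krt8 (11.03, with 10.28 and 10.35) and the epithelial cadherin gene Cdh1 (6.60, with 5.36 and 5.92). Krt14, a basal keratin, was 8.03 in 1101A, with 5.83 and 6.56 in the others, against 5.53 to 5.61 in diffMMS and 5.55 to 5.60 in MMS. Elf3 ran the other way and was lowest in 1101A, at 7.48. The part of the keratin difference in the spread of these factors was not tested.

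**Figure D4:**
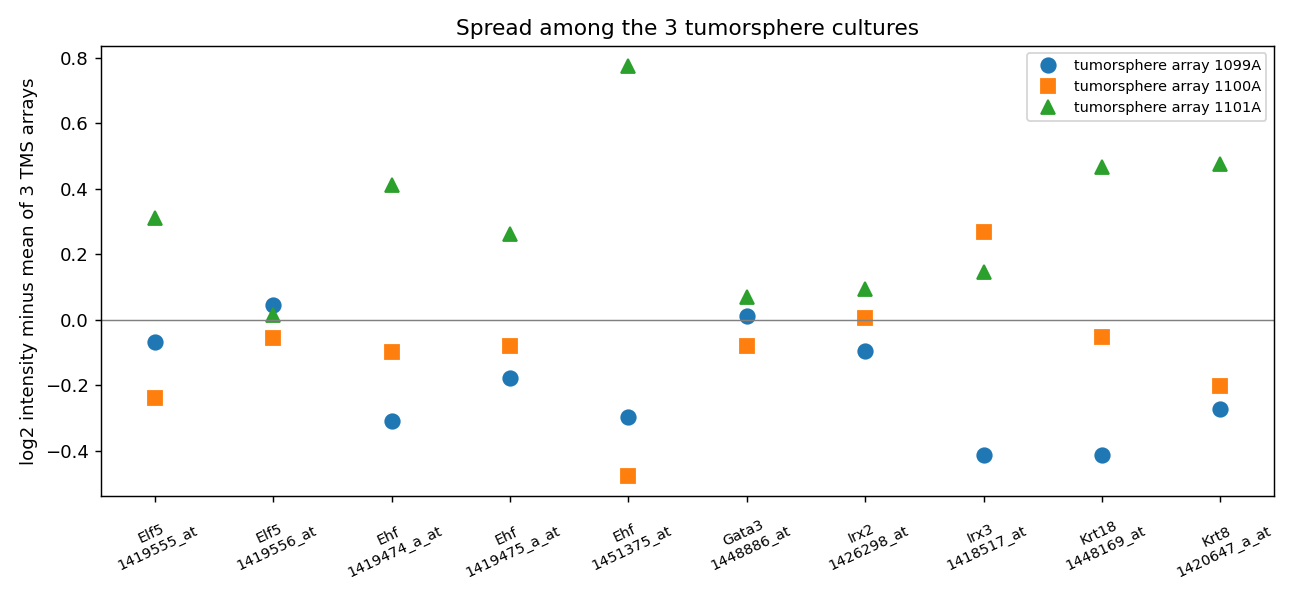
Log2 intensity of each of the 3 TMS arrays minus their mean, for probe sets of Elf5, Ehf, Gata3, Irx2 and Irx3 and for the luminal keratins Krt18 and Krt8. Array 1101A is above the mean for every probe set shown, most for Ehf 1451375_at. Array 1099A is lowest for Irx2, Irx3, Krt18, Krt8 and the Ehf probe sets 1419474_a_at and 1419475_a_at.

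Genes of a luminal epithelial list were mostly higher in TMS, as Elf5, Ehf, Gata3, Irx2 and Irx3 were. Of 26 luminal epithelial genes, 22 were higher in TMS than in MMS and the other 4 were not called (median difference 1.04), where over all genes 6.22% were called higher and 7.14% lower. Against diffMMS 23 were higher and 1, Cdh3, was lower (median 1.10), where over all genes 12.3% were called higher and 12.6% lower. The largest differences from MMS were those of Krt18 (4.27, SE 0.208, adjusted p = 1.9e-07), Epcam (3.56), which encodes an epithelial adhesion molecule, and Cd24a (3.29). Of 26 progenitor and alveolar genes, 12 were higher in TMS than in MMS and 14 than in diffMMS, and the others were not called. Lcn2, which encodes lipocalin 2, was higher by 5.42 against MMS and 5.84 against diffMMS, and Csn3, which encodes the milk protein kappa-casein, by 5.08 and 6.33. Between diffMMS and MMS the luminal epithelial list had a median difference of 0.00, with 5 genes higher and 1 lower, where over all genes 17.9% were called higher and 16.2% lower. This count of higher genes was 2 without 859A, 860A or 861A and 3 without 863A.

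Other transcription factors of luminal cells were called higher in TMS more often than lower, and most were not called. Of 45 measured factors of a list of 48, 13 were higher in TMS than in MMS and 1 lower (median 0.13). Over all genes 6.22% were called higher and 7.14% lower. Against diffMMS 13 were higher and 5 lower (median 0.03), where over all genes 12.3% were called higher and 12.6% lower. With the probe set of the largest F statistic per gene, 20 were higher than in MMS, and without 1100A or 862A, 3 were lower than in diffMMS. Trps1, a GATA-type factor with a repressive role, had 7.31, 7.30 and 8.28 in TMS, against 5.16, 5.24 and 5.37 in diffMMS and 5.74, 5.60 and 5.78 in MMS. It was higher by 1.93 against MMS (SE 0.204, adjusted p = 0.000105) and 2.38 against diffMMS, with 1101A again the highest. Tfap2c, which encodes the AP-2 gamma factor of luminal cells, was higher by 1.59 and 1.52 (6.94, 6.70 and 7.46 in TMS, with 5.29 to 5.60 in the 6 other arrays). Hey1, a target of Notch signaling, was higher by 1.44 and 1.37. Id2, which encodes an inhibitor of basic helix-loop-helix factors, was 0.72 higher than in MMS and 1.83 higher than in diffMMS, and Creb3l1 was lower by 0.41 and 0.84, of which the first call was lost without 1100A, 858A, 859A or 862A.

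Relatives of the same families were counted next. Of 20 other ETS genes measured, 2 were higher in TMS than in MMS and 1 lower (median -0.05), where over all genes 6.22% were called higher and 7.14% lower, and each of these calls was lost without 858A, without 859A and without 860A. Against diffMMS 3 were higher (5 without 1099A) and 4 lower (1 without 1101A, and 2 without 1100A, 862A or 863A). Over all genes 12.3% were called higher and 12.6% lower there. Etv4 and Etv5, which respond to growth factor signaling, were lowest in diffMMS. Etv4 had 9.01, 8.90 and 8.47 in TMS, against 7.62, 7.36 and 7.44 in diffMMS and 9.0, 8.87 and 8.81 in MMS. It was 1.32 higher in TMS than in diffMMS (adjusted p = 1.3e-05 from limma) and differed from MMS by -0.10 (adjusted p = 0.68). Etv5 was 1.46 higher in TMS than in diffMMS. Of 12 GATA, FOXA and nuclear receptor relatives, 0 were called between TMS and MMS by limma and 1 had an unadjusted p under 0.05. With array weights, and with the probe set of the largest F statistic, 1 was lower than in MMS. Against diffMMS Gata6 was lower by 0.40 (adjusted p = 0.00593).

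Of 17 other Iroquois and Krüppel-like genes, 4 were higher in TMS than in MMS (Irx1, Irx5, Klf9 and Klf13) and 1, Klf10, was lower. Over all genes 6.22% were called higher and 7.14% lower. The Klf13 call was lost without 1099A, 1100A, 858A, 859A, 860A or 863A. Klf9, a target of glucocorticoid and thyroid hormone, had 8.34, 8.34 and 8.33 in TMS, against 8.77, 9.07 and 9.01 in diffMMS and 7.92, 7.82 and 7.95 in MMS. It was highest in diffMMS, by 0.61 above TMS (adjusted p = 0.000237) and 1.05 above MMS (adjusted p = 2.3e-06), whereas Klf5 1451021_a_at was lowest there. Klf10, a gene induced by TGF-beta, had 7.00, 7.21 and 6.87 in TMS, against 5.41, 5.61 and 5.53 in diffMMS and 7.56, 7.55 and 7.57 in MMS. Against diffMMS 3 of the 17 were higher in TMS (Irx1, Irx5 and Klf10) and 3 lower (Klf9, Klf15 and Klf17). Over all genes 12.3% were called higher and 12.6% lower there. Between diffMMS and MMS 8 of the 17 were higher and 1 lower, where over all genes 17.9% were called higher and 16.2% lower. Without 859A, 860A or 861A, 5 of the 17 were higher.

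Hormone-sensing markers and receptor targets did not move as the luminal epithelial list did. Of 25 measured genes of a list of 30, 4 were higher in TMS than in MMS and the others not called (median 0.11). Over all genes 6.22% were called higher and 7.14% lower. Against diffMMS 3 were higher, a share near the 12.3% over all genes, and 8 lower, where 12.6% of all were (median -0.19). The count of 4 was 2 without 1100A or 859A and 7 without 1101A, and the count of 8 was 5 without 1100A or 863A. Igfbp5, which encodes a binding protein of insulin-like growth factors, was higher in TMS by 1.52 against MMS (adjusted p = 5.8e-06 from limma) and 0.99 against diffMMS. Igfbp4, of the same family, differed from MMS by -0.44 (adjusted p = 0.231) and was 1.66 lower than in diffMMS (adjusted p = 0.000183). The cyclin D1 gene Ccnd1 was higher by 0.86 and 2.63, beside cell cycle genes of which 18 of 21 were lower than in MMS and 19 higher than in diffMMS. Between diffMMS and MMS, 14 of the 25 were higher and 1 lower, with Esr1 and Pgr at the levels given above. Over all genes 17.9% were called higher and 16.2% lower there.

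Basal and mesenchymal factors gave 2 higher and 4 lower of 28 between TMS and MMS. Over all genes 6.22% were called higher and 7.14% lower, so that the share called higher was near that of all genes. Sox10, a neural crest and mammary progenitor factor, was among the higher ones, with 8.78, 8.60 and 8.61 in TMS, against 7.91, 7.84 and 7.86 in diffMMS and 7.57, 7.50 and 7.49 in MMS (1.15 higher than in MMS, SE 0.0742, adjusted p = 2.0e-06). The other was Foxc1, 0.82 higher than in MMS with a difference from diffMMS of -0.11 (adjusted p = 0.489). Egr2, an immediate early zinc finger gene, was the most lowered, with 9.24, 8.72 and 8.33 in TMS, against 5.90, 5.77 and 5.76 in diffMMS and 9.99, 9.96 and 9.83 in MMS (1.16 lower than in MMS, adjusted p = 0.000941, and 2.95 higher than in diffMMS). Hif1a, which encodes a hypoxia-inducible factor, was 0.69 lower than in MMS (adjusted p = 0.0218, a call lost without 1099A, 1100A, 859A or 860A) and 1.81 lower than in diffMMS. Snai2, the gene of the Slug repressor, was 0.34 lower than in MMS (adjusted p = 0.00962), and Sox11, outside the rule for names and added to complete the count, 0.22 lower. The count of lower factors was 2 without 859A and 7 with arrays centred on the median. Against diffMMS 5 of the 28 were higher and 4 lower, where over all genes 12.3% were called higher and 12.6% lower. The share called lower was near that of all genes, and the count of 4 was 2 without 863A. Of 23 macrophage and leukocyte genes, 9 were higher in TMS than in MMS, where over all genes 6.22% were called higher. The count of 9 was 5 without 1100A or 859A and 4 without 860A. The summed deposited intensity of these 23 genes was 2295 to 3499 in TMS, against 1704 to 2375 in diffMMS and 1575 to 1727 in MMS. Lyz2, a lysozyme gene of macrophages, was highest in 1100A (10.32, with 9.37 and 9.21 in the other TMS arrays), and so was Irx3 among the 10 genes, while Elf5, Ehf and Gata3 were at their lowest or middle TMS value there. Its part in these differences was not tested.

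**Figure D5:**
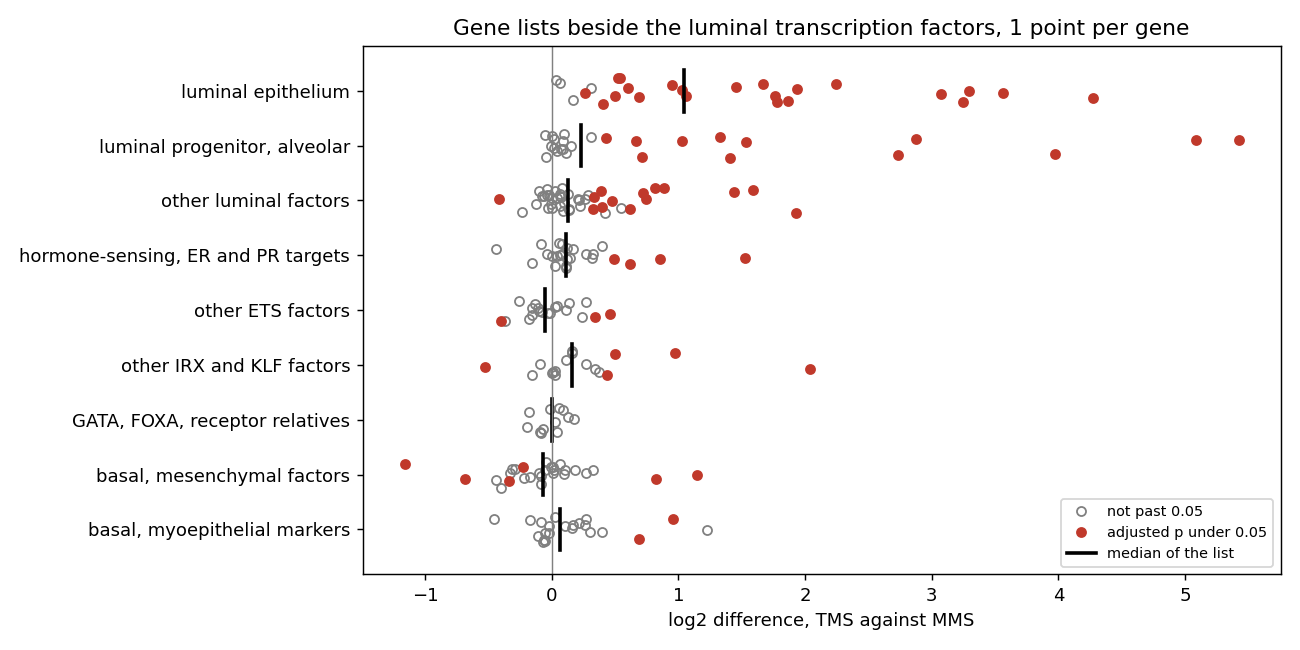
Log2 difference of TMS against MMS for each gene of 9 lists (filled points have an adjusted p under 0.05 from limma, bars are list medians). The luminal epithelial list lies furthest to the right, with a median of 1.04, and the relatives of Gata3, Foxa1 and the hormone receptors have no filled point.

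Genes whose pattern over the 9 arrays was most like that of a factor were sought among 572 genes with an SD of at least 0.5, by Pearson's r, which here mostly reflects TMS against the rest. For Elf5 they were Fxyd3 (r = 0.998), Chil1 (0.997) and Cldn7 (0.996), of which Cldn7 encodes a tight junction claudin. For Ehf they were Esrp1 (0.980), an epithelial splicing factor gene, Cldn4 (0.978) and Wfdc2 (0.975). For Gata3 they were Wfdc18 (0.995), Plekhb1 (0.995) and Fxyd3 (0.994). Irx2 was most like St14 (0.998), which encodes the protease matriptase, Erbb3 (0.995), the partner receptor of Erbb2, and Wfdc18 (0.981), and Irx3 was most like Clu (0.979), Erbb3 (0.974) and Ccl6 (0.973). Both St14 and Erbb3 were also higher in diffMMS than in MMS, by 0.30 and 0.22, with adjusted p of 0.019 and 0.0449 from limma. The probe sets of Elf3, Foxa1, Klf5, Esr1 and Pgr had an SD under 0.5 and were not compared.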

How the data were processed

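The authors deposited 1 table of intensity values on a linear scale, 1 column for each of 9 MOE430A arrays, already summarised per probe set and scaled by a method that is not given in the sources used here. The table has no detection calls. Of its 22690 rows, 64 are Affymetrix controls and 22626 were tested. By the platform annotation 20380 carry 1 symbol, 691 several and 1555 none, and lists of related genes used the probe set of the highest mean for each of 12393 genes.

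Quartiles differed between arrays by up to 0.134 (log2), more than the 0.1 allowed for values left as deposited, so that log2(intensity + 8.67), the constant being 10% of the median value, was quantile normalized. Group means of all 9 arrays were fitted with limma 3.58.1 in R 4.3.3 (lmFit, eBayes with an intensity trend, 6 residual degrees of freedom). Two-sided p values were Benjamini-Hochberg adjusted across 22626 probe sets, with 0.05 as the threshold and no filter on dim probe sets. Spearman correlations between arrays of a group were 0.985 to 0.996. The fit was tested on simulated data. The number of arrays limits the precision, and whether MMS and diffMMS preparations came from separate animals is not stated, so that p values cover the spread between these preparations only.

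The 10 genes and 15 gene lists were chosen with earlier results of these data known. All probe sets of the 10 genes are given. Named list genes come from the 3 most raised and the 3 most lowered called genes with non-overlapping groups, per list and comparison, and for each of the 10 genes with an SD of at least 0.5 its 3 most alike genes were taken. Neighbouring genes and their order came from RefSeq on GRCm38.p6, promoters from the same build. The label of array 858A carries a suffix R of unstated meaning. Python 3.11.15 and matplotlib 3.10.9 drew the figures. Alternatives were other scalings, pseudocounts, filters, variance models, array weights, a stricter threshold, other probe sets and each array left out.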

Additional observations from a re-analysis of the deposited data

How the results depend on the processing

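Counts of called probe sets moved by more than 1.5 times in few settings. For TMS against MMS, 3231 were called, 5860 with array weights, 1549 at an adjusted p under 0.01, and 1863 to 4088 when an array was left out, with 1863 without 859A and 1907 without 860A. For TMS against diffMMS the count was 5353, 3166 under 0.01 and 4313 to 5626 with an array left out, and for diffMMS against MMS 7489, 4456 and 5218 to 8347. With arrays centred on the median, 1225 probe sets were higher and 2366 lower in TMS than in MMS (1471 and 1760 after quantile normalization), and 2903 were higher and 4673 lower in diffMMS than in MMS (3643 and 3846). No called difference of the 10 genes or of the named list genes changed sign. Differences of the 14 probe sets moved beyond the replicate spread in 42 of 786 settings, all of them changes of the pseudocount or of the normalization. The other settings say little here. Filters and variance models leave the difference as it is, and leaving out an array can hardly shift it beyond a spread taken from the same arrays. Filters on dim probe sets left 5 called higher in TMS than in MMS above the lower quartile of mean intensity and 1 above the median. These filters remove probe sets before the fit, and called probe sets that stayed in kept their call. The Ehf probe sets and Elf5 1419556_at, at percentiles 3.66 to 19.2 of mean intensity, fell below the quartile. Among those called, only Irx2, at percentile 69.0, lay above the median. The cause of the other movements was not tested. No paired analysis was possible because the labels give no replicate numbers that pair preparations. No group had 4 or more arrays, so no array was screened as an outlier.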
